A study of Mus musculus with 28 samples.

Results

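Fatty acid desaturases and elongases were followed in mouse retroperitoneal white fat through 8 genes: the stearoyl-CoA desaturases Scd1 and Scd2, the fatty acid desaturases Fads1, Fads2 and Fads3, and the elongases Elovl1, Elovl5 and Elovl6. They were chosen by name and are 8 of the 18194 genes tested. The probe table assigns 22 probe sets to them alone, out of 34958 probe sets that name 1 gene. Each gene is represented by its probe set with the highest mean over all 28 arrays, and its other probe sets are described beside it.

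The CLA groups were mice fed a diet that held CLA, the conjugated linoleic acid isomer trans-10 cis-12, at 0.5%, for 1, 2, 3, 4, 7, 10 or 17 days. The control groups ate the control diet for the same days. All mice were of the strain spelled C57BK/6J in the labels, and the age given for every array is 9 weeks. Each diet and day has 2 arrays, and the pads of 10 mice were pooled. The labels do not say if both arrays of a diet and day come from 1 pool, so p-values for a single day and for differences between days may measure technical spread only.

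Desaturases place double bonds in fatty acyl chains and elongases lengthen the chains. Scd1 and Scd2 turn saturated into monounsaturated fatty acids, which fat cells store as triglyceride, and Elovl6 makes the substrate of that step by lengthening palmitate to stearate. Fads2, Elovl5 and Fads1 act in turn to build long polyunsaturated fatty acids from dietary precursors, while Elovl1 extends very long chains used in sphingolipids. Several of these genes are known targets of the lipogenic transcription factors SREBP-1c, encoded by Srebf1, and ChREBP, encoded by Mlxipl.

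The values are log2 signals, in which a difference of 1 is a factor of 2, and they ran from 1.90 to 14.18. The adipocyte hormone gene Adipoq averaged 12.7 on the CLA arrays and 13.7 on the control arrays, so the tissue carried its defining marker in both diets. Markers of several cell types moved with the diet. Over all 7 days 19.8% of all genes were called lower and 18.7% higher. Of 8 measured adipocyte markers 7 fell over all days, led by Slc2a4 at -2.25 with Lpl not called, and their mean log2 signal was 10.12 to 11.04 on the CLA arrays and 11.27 to 12.14 on the control arrays. All 10 macrophage markers rose, led by Gpnmb at 4.28, with a mean of 7.71 to 10.80 on the CLA arrays and 7.41 to 8.67 on the control arrays. The part of these shifts in the results below was not tested, and in RNA of whole pads fewer cells of a type and less mRNA per cell cannot be told apart. The first control array of day 2 stood apart with the 8.67, since the other 13 control arrays had 7.41 to 7.90. On day 1 the log2 signal of Gapdh at its 3' end exceeded that at its 5' end by 1.31 and 1.27 on the CLA arrays and by 1.33 and 0.15 on the control arrays, a measure of RNA degradation that lay between 0.15 and 1.20 on days 3 to 17. The same measure for actin moved with the diet, with a median of 1.05 on the CLA arrays and 1.44 on the control arrays of days 3 to 17, both CLA arrays below both control arrays on days 2, 4, 10 and 17, and its part in the results was not tested.

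Over all 7 days 6 of the 8 genes fell under CLA, 1 rose and 1 was not called. Scd1, Scd2, Fads1, Fads3, Elovl5 and Elovl6 fell, Elovl1 rose, and Fads2 had a log2 difference of -0.30 ± 0.14 (SE of the model, n = 7 days, adjusted p = 0.127). A gene is called at an adjusted p under 0.05 in limma, which called 19.8% of all genes lower and 18.7% higher in this comparison. The median difference of the 8 genes was -0.67, against -0.03 for all genes tested. The daily differences plotted by family show Elovl6 as the lowest and Elovl1 as the highest of the 8 on each day.

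**Figure D1:**
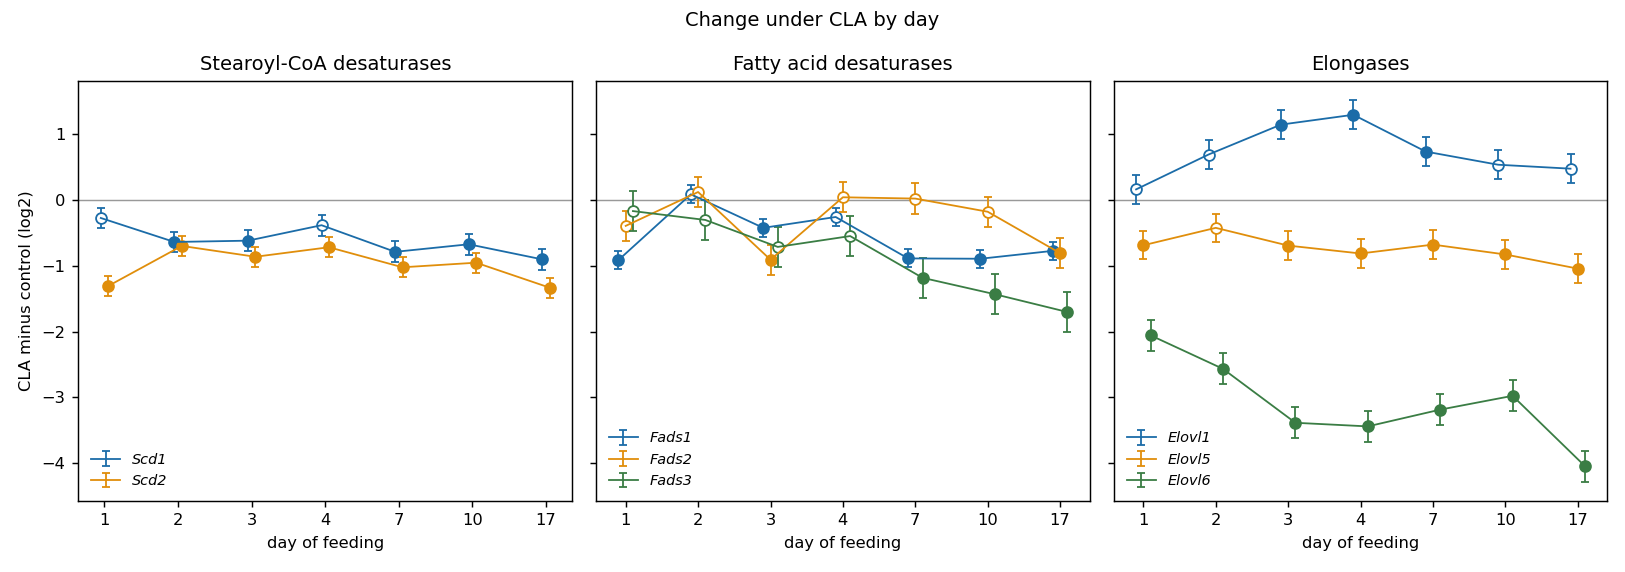
Log2 difference of CLA minus control (y axis) by day of feeding (x axis, days evenly spaced) for each gene, with bars for the SE of limma's model; filled points have an adjusted p under 0.05. Elovl6 runs from -2.06 on day 1 to -4.05 on day 17, while Elovl1 stays above 0 with its peak of 1.30 on day 4.

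Counted by day, 4 of the 8 genes fell on day 1, 3 on day 2, 6 on day 3, 3 on day 4, 6 on day 7, 6 on day 10 and 7 on day 17. The shares of all genes called lower on these days were 10.8%, 5.34%, 11%, 11.3%, 8.57%, 10.2% and 8.78%. Elovl1 was the 1 gene that rose, on days 3, 4 and 7, when 11.3%, 12.8% and 8.74% of all genes were called higher. Scd2 and Elovl6 were called lower on all 7 days. On day 2 only Scd1, Scd2 and Elovl6 fell, and the median of the 8 genes was -0.36, against -0.97 on day 17.

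**Figure D2:**
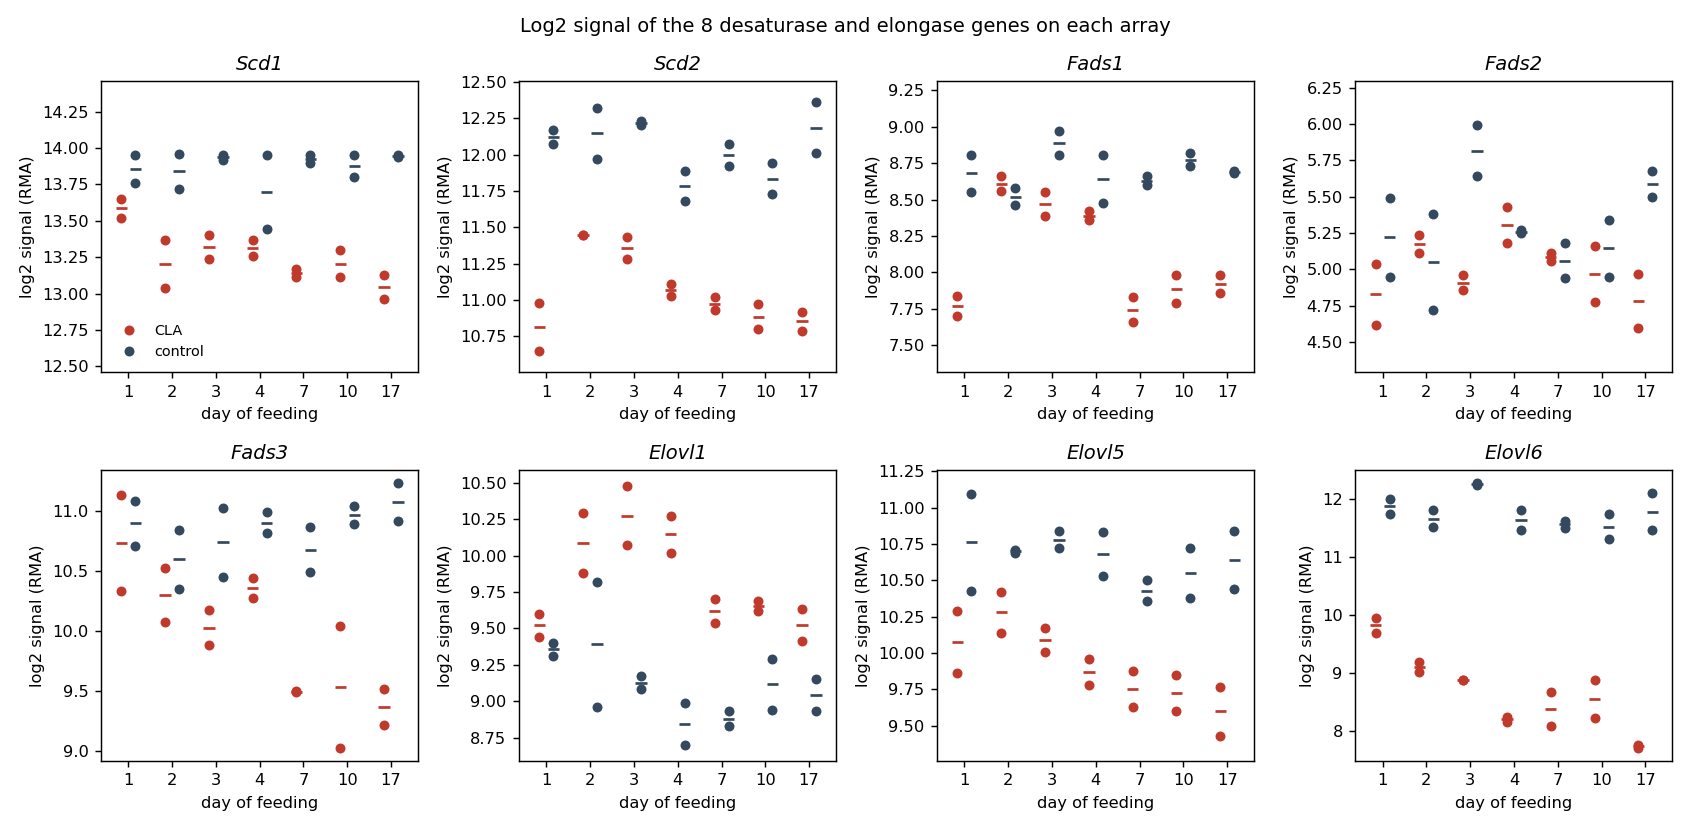
Log2 signal (y axis, scaled per gene) on each of the 28 arrays by day of feeding (x axis, days evenly spaced), CLA left of control, with a bar at each group mean of 2 arrays. The 14 CLA arrays of Elovl6 lie between 7.71 and 9.95, all below the 14 control arrays at 11.31 to 12.28, whereas the diets overlap for Fads2 on most days.

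Scd1 is the main desaturase of mouse adipocytes and its probe set read near the top of the signal range. Its log2 signal on the CLA arrays was 13.52 and 13.65 on day 1, 13.04 and 13.37 on day 2, 13.24 and 13.40 on day 3, 13.37 and 13.26 on day 4, 13.17 and 13.11 on day 7, 13.11 and 13.30 on day 10 and 12.96 and 13.13 on day 17. The control arrays read 13.76 and 13.95 on day 1, 13.72 and 13.96 on day 2, 13.95 and 13.92 on day 3, 13.44 and 13.95 on day 4, 13.90 and 13.95 on day 7, 13.80 and 13.95 on day 10 and 13.95 and 13.94 on day 17. Both CLA arrays lay below both control arrays on every day, a separation held by 22.4%, 23.5%, 28.7%, 31.4%, 29.6%, 33.3% and 33.4% of all genes on the successive days, while 16.9% of all genes were lower on all 7 days in the daily means. Scd1 fell by 0.61 ± 0.08 over all days (SE, n = 7 days, adjusted p = 0.000424 in limma). Of the 14 control arrays, 10 crowded between 13.90 and 13.96, and the 65.6% of control that this fall amounts to is not read as its size. The single-day falls were called on days 2, 3, 7, 10 and 17, with the largest at -0.90 ± 0.16 on day 17 (adjusted p = 0.00035), while day 1 (-0.27) and day 4 (-0.38) did not pass.

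The call of day 2 in this bright probe set of Scd1 was lost without CLA replicate 1 (-0.47) or control replicate 2 of that day (-0.515), that of day 3 without replicate 1 of CLA (-0.535) or control (-0.60), and that of day 10 without CLA replicate 1 (-0.575) or control replicate 2 (-0.595). Without control replicate 1, the lowest control array, day 4 passed as well (-0.635, adjusted p = 0.0131). The brightest value in the data was 14.18, not far above these control arrays, and a dimmer probe set of Scd1 gave a larger difference. That dimmer set averaged 9.93 ± 0.39 on the CLA arrays and 11.7 ± 0.40 on the control arrays (SD, n = 14 each) and fell by 1.76 ± 0.13 over all days, to 29.6% of control, with calls on all 7 days. Its daily differences ran between -1.15 on day 1 and -2.33 on day 17.

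Scd2, a stearoyl-CoA desaturase gene in the cluster Scd3, Scd2, Scd4 and Scd1 on chromosome 19, fell on all 7 days. The CLA arrays had a log2 signal of 10.98 and 10.65 on day 1, 11.45 and 11.45 on day 2, 11.28 and 11.43 on day 3, 11.11 and 11.03 on day 4, 10.93 and 11.02 on day 7, 10.80 and 10.97 on day 10 and 10.92 and 10.79 on day 17. Control arrays had 12.07 and 12.17 on day 1, 11.97 and 12.32 on day 2, 12.20 and 12.23 on day 3, 11.89 and 11.68 on day 4, 11.92 and 12.07 on day 7, 11.73 and 11.94 on day 10 and 12.36 and 12.01 on day 17. No CLA array overlapped the control arrays of any day. On single days 22.4% to 33.4% of all genes were lower in this way, shares that apply to the falling genes below as well. The lowest CLA value came on day 1, when Gapdh 3' minus 5' values were 1.31 and 1.27 under CLA and 1.33 and 0.15 in control. The part of RNA degradation in the Scd2 difference of day 1 was not tested. Scd2 fell by 0.98 ± 0.09 over all days (SE, n = 7 days, adjusted p = 6.71e-05), to 50.6% of control. On single days the largest falls were those of day 17, at -1.33 ± 0.15, and day 1, at -1.31 ± 0.15, and the smallest was that of day 2, at -0.70 ± 0.15 (adjusted p = 0.00635 in limma with n = 2 arrays a diet). The call of day 2 was lost without control replicate 2 of that day (-0.52). The 2 dimmer probe sets differed by -1.51 ± 0.11 and -1.94 ± 0.27 over all days, both called, and were called lower on 4 and 3 single days. Of Scd3 and Scd4, Scd3 had -0.24 ± 0.08 (adjusted p = 0.0511) and Scd4 was not analysed here.

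Elovl6 showed the largest fall of the 8 genes and a difference that ranked 7 from the bottom among all 18194 genes. Its CLA arrays read 9.69 and 9.95 on day 1, 9.19 and 9.01 on day 2, 8.88 and 8.87 on day 3, 8.16 and 8.23 on day 4, 8.09 and 8.67 on day 7, 8.22 and 8.88 on day 10 and 7.71 and 7.76 on day 17. Its control arrays read 11.75 and 12.00 on day 1, 11.52 and 11.81 on day 2, 12.24 and 12.28 on day 3, 11.81 and 11.46 on day 4, 11.62 and 11.51 on day 7, 11.31 and 11.74 on day 10 and 12.10 and 11.46 on day 17. The lowest control value, 11.31, lay above the highest CLA value, 9.95. Elovl6 fell by 3.09 ± 0.21 over all days (SE, n = 7 days, adjusted p = 1.63e-05), to 11.7% of control. It had fallen by 2.06 ± 0.24 on day 1 (adjusted p = 4.6e-06) and reached -3.39 on day 3, -3.44 on day 4 and -4.05 ± 0.24 on day 17, when 6.06% of the control level was left.

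The daily differences of Elovl6 were unequal in limma's test of the diet by day interaction (adjusted p = 0.00728), which 2 of the 8 genes and 9.82% of all genes passed. The mean difference of days 7, 10 and 17 was -3.40, and that of days 1, 2 and 3 was -2.67. This change from early to late was -0.73 ± 0.19 (adjusted p = 0.0193), and 3 of the 8 genes, Fads1, Fads3 and Elovl6, and 3.51% of all genes were called lower in that contrast. A second probe set of Elovl6 fell by 3.35 ± 0.20 over all days but had an early to late change of -0.38 that was not called (adjusted p = 0.579 with the most variable probe set of each gene), and its interaction was not called (adjusted p = 0.457). The dimmest set, with a mean of 3.56, differed by -0.23.

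Elovl5, the elongase of polyunsaturated fatty acids, had a smaller difference than Elovl6. Log2 signals on its CLA arrays were 10.29 and 9.86 on day 1, 10.42 and 10.14 on day 2, 10.01 and 10.17 on day 3, 9.96 and 9.78 on day 4, 9.88 and 9.63 on day 7, 9.85 and 9.60 on day 10 and 9.77 and 9.43 on day 17. Those on the control arrays were 11.09 and 10.43 on day 1, 10.69 and 10.71 on day 2, 10.84 and 10.72 on day 3, 10.83 and 10.53 on day 4, 10.50 and 10.36 on day 7, 10.72 and 10.38 on day 10 and 10.84 and 10.44 on day 17. The diets did not overlap on any day. Elovl5 fell by 0.74 ± 0.07 over all days (SE, n = 7 days, adjusted p = 9.41e-05), to 60.1% of control, and its second probe set fell by 0.77 ± 0.06. The fall was called on 6 days, with values between -0.68 on day 7 and -1.04 on day 17, and day 2 did not pass (-0.42, adjusted p = 0.293). Most of these single-day calls rested on few arrays. They were lost on day 1 without CLA replicate 2 (-0.47) or control replicate 1 (-0.355), on day 4 without CLA replicate 2 (-0.72) or control replicate 1 (-0.66), on day 10 without CLA replicate 2 (-0.70) or control replicate 1 (-0.655), and on days 3 and 7 without any 1 of the day's 4 arrays (-0.77 to -0.61 and -0.80 to -0.55). Quantile normalisation ended the calls of days 1, 3 and 7 (-0.60, -0.63 and -0.67). The interaction with day was not called (adjusted p = 0.879).

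Elovl1 went the other way. The CLA arrays of this very long chain elongase read 9.60 and 9.44 on day 1, 10.29 and 9.88 on day 2, 10.48 and 10.07 on day 3, 10.02 and 10.27 on day 4, 9.54 and 9.70 on day 7, 9.69 and 9.62 on day 10 and 9.41 and 9.63 on day 17. Its control arrays gave 9.40 and 9.31 on day 1, 9.82 and 8.96 on day 2, 9.08 and 9.17 on day 3, 8.70 and 8.99 on day 4, 8.93 and 8.83 on day 7, 8.94 and 9.29 on day 10 and 8.93 and 9.15 on day 17. Both CLA arrays lay above both control arrays on every day, as 22.5%, 19%, 29.1%, 28.5%, 23.7%, 23.4% and 30.1% of all genes did on the successive days, while 13.5% of all genes were higher on all 7 days in the daily means. Elovl1 rose by 0.72 ± 0.13 over all days (SE, n = 7 days, adjusted p = 0.00217), to 165% of control in its brightest probe set. The rise was called on day 3 at 1.15 ± 0.22, on day 4 at 1.30 ± 0.22 (adjusted p = 0.000186) and on day 7 at 0.74 ± 0.22. Days 1, 10 and 17 gave 0.17, 0.54 and 0.48, and day 2 gave 0.70 (adjusted p = 0.0541). The macrophage marker mean was 7.85 on the CLA arrays of day 1 and 9.95 to 10.80 on those of days 3 to 17, against 7.48 on the control arrays of day 1 and 7.56 to 7.90 on those of days 3 to 17, and their part in the rise of Elovl1 was not tested.

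On day 2 the first control array, with the raised macrophage markers, had an Elovl1 signal of 9.82, the highest of all control arrays. Without it the difference of that day was 1.13 (adjusted p = 0.00139) and day 10 passed too (0.54, adjusted p = 0.0366), which it also did without the other control array of day 2. The call of day 7 was lost without any 1 of its 4 arrays (0.66 to 0.82). A second probe set of Elovl1, nearly as bright as the first, rose by 0.74 ± 0.12 over all days. The other 2 sets rose by 0.34 ± 0.09, with no single day called, and by 0.60 ± 0.13, with calls on days 3 and 4.

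The stretches before the annotated starts of the 3 elongase genes are shown because these genes moved unlike one another. Each is the 250 bases upstream of the start on the gene's own strand, from RefSeq on GRCm38.p6, and all 3 genes lie on the plus strand. Capitals mark CCAAT boxes (CCAAT, or ATTGG on the other strand) and E-boxes (CACGTG).
Elovl6, chr3:129532136-129532385: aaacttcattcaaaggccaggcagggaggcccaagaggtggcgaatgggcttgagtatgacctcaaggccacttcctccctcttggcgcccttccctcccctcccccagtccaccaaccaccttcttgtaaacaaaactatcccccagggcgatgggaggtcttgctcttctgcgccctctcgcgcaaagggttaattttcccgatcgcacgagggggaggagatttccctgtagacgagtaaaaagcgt
Elovl5, chr9:77917115-77917364: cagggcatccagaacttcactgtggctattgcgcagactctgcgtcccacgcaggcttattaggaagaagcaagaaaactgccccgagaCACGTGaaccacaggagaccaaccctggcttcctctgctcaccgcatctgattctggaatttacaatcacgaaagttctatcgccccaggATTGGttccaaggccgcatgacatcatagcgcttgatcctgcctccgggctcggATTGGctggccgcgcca
Elovl1, chr4:118427843-118428092: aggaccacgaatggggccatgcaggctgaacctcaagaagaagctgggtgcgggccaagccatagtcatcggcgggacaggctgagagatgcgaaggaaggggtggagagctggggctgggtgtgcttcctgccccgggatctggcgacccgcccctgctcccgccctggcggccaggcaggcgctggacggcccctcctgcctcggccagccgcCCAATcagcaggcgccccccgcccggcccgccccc

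Of 4 motifs searched on both strands, the Elovl6 stretch held none. The Elovl5 stretch held a CCAAT box at 71 to 67 and another at 17 to 13 bases before the start, both on the minus strand, and an E-box at 161 to 156. The Elovl1 stretch held a CCAAT box at 35 to 31 bases and 5 GC boxes (GGGCGG), and a second annotated start of Elovl1 had 2 GC boxes and none of the others. The letters TCACNCCA of the sterol regulatory element were in none of these stretches. Among 32536 different stretches of this length, 33.8% held a CCAAT box, 6.04% an E-box, 33% a GC box and 3.65% those of the sterol regulatory element. A match is a match of letters. A stretch without one says nothing on binding outside it or at sites within it that are spelled differently. The Fads3 stretch held 2 CCAAT boxes and 2 GC boxes and the Fads2 stretch 1 GC box. RefSeq stretches were matched for 5 of the 8 genes, all but Scd1, Scd2 and Fads1.

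Fads1, Fads2 and Fads3 follow each other on chromosome 19. Fads1, the desaturase of the last step to arachidonic acid, was called lower on days 1, 3, 7, 10 and 17. The CLA arrays read 7.70 and 7.84 on day 1, 8.66 and 8.56 on day 2, 8.55 and 8.39 on day 3, 8.36 and 8.42 on day 4, 7.66 and 7.83 on day 7, 7.79 and 7.98 on day 10 and 7.98 and 7.86 on day 17. The control arrays of Fads1 read 8.55 and 8.81 on day 1, 8.46 and 8.58 on day 2, 8.97 and 8.81 on day 3, 8.48 and 8.81 on day 4, 8.66 and 8.60 on day 7, 8.73 and 8.82 on day 10 and 8.70 and 8.68 on day 17. The diets overlapped on day 2 and were separate on the other 6 days. Fads1 differed by -0.91 ± 0.14 on day 1 (adjusted p = 8.67e-05), by 0.09 on day 2 (adjusted p = 0.841), by -0.89 ± 0.14 on days 7 and 10 and by -0.77 ± 0.14 on day 17. Day 3 was called at -0.42, a call that was lost without any 1 of its 4 arrays (-0.50 to -0.34), and day 4 was not called (-0.26). Over all days Fads1 fell by 0.58 ± 0.13 (SE, n = 7 days, adjusted p = 0.00689).

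The days differed for Fads1 in the interaction test (adjusted p = 0.00483), and its late minus early change was -0.44 ± 0.11 (adjusted p = 0.0169). On day 1 the CLA arrays of Fads1 were 7.70 and 7.84, with Gapdh 3' minus 5' values of 1.31 and 1.27. The control arrays had 8.55 with 1.33 and 8.81 with 0.15. The part of RNA degradation in the difference of day 1 was not tested. The second probe set of Fads1 was dim, at a mean of 4.56, and differed by 0.02 over all days.

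Fads2, which performs the first desaturation of linoleic acid in this pathway, was dim in the pad. Its CLA arrays gave 4.62 and 5.04 on day 1, 5.11 and 5.24 on day 2, 4.86 and 4.96 on day 3, 5.43 and 5.18 on day 4, 5.11 and 5.06 on day 7, 5.16 and 4.78 on day 10 and 4.60 and 4.97 on day 17. Its control arrays gave 4.95 and 5.49 on day 1, 4.72 and 5.38 on day 2, 5.99 and 5.64 on day 3, 5.27 and 5.25 on day 4, 4.94 and 5.18 on day 7, 5.34 and 4.95 on day 10 and 5.68 and 5.50 on day 17. All 3 of its probe sets were dim, with means of 4.61 to 5.16. The diets were separate on days 3 and 17 alone, where Fads2 fell, at -0.91 ± 0.23 (adjusted p = 0.0066) and -0.81 ± 0.23 (adjusted p = 0.016). Control signals were highest on those same days. Each of these calls was lost without replicate 1 of CLA (-0.855 and -0.62) or of control (-0.73 and -0.715). The other probe sets were called lower on day 3, at -0.64 and -0.78, but not on day 17, at -0.18 and -0.10.

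Fads3, whose product desaturates sphingoid bases, was called on days 7, 10 and 17 in its brightest probe set and from day 3 in the second. The log2 signal on its CLA arrays was 10.33 and 11.13 on day 1, 10.07 and 10.52 on day 2, 9.88 and 10.17 on day 3, 10.44 and 10.27 on day 4, 9.50 and 9.49 on day 7, 9.03 and 10.04 on day 10 and 9.52 and 9.22 on day 17. On the control arrays it was 10.71 and 11.08 on day 1, 10.35 and 10.84 on day 2, 10.45 and 11.02 on day 3, 10.81 and 10.99 on day 4, 10.49 and 10.86 on day 7, 10.89 and 11.04 on day 10 and 11.23 and 10.91 on day 17. The diets overlapped on days 1 and 2 and were separate from day 3. Its difference was -1.18 ± 0.30 on day 7 (adjusted p = 0.00842), -1.43 ± 0.30 on day 10 and -1.70 ± 0.30 on day 17 (adjusted p = 0.000357), to 30.8% of control on that last day. Days 1 to 4 gave -0.17, -0.30, -0.71 and -0.55, of which days 3 and 4 passed with the replicate block (adjusted p = 0.0112 and 0.0433). Over all days Fads3 fell by 0.86 ± 0.19 (adjusted p = 0.00598).

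Late minus early days gave -1.05 ± 0.25 for Fads3 (adjusted p = 0.00937), although the interaction over all days was not called (adjusted p = 0.096). Its second probe set gave -1.24 (adjusted p = 0.000295), with daily differences from -0.41 on day 1 to -2.14 on day 17, calls on day 3 (-0.83, adjusted p = 0.0137) and day 4 (-0.99, adjusted p = 0.00369) as well as later, and an interaction that was called (adjusted p = 0.00555, all probe sets fitted together). The dimmest set gave -0.73, which was not called. The call of day 7 was lost without CLA replicate 1 (-1.185) or control replicate 2 (-0.995), and that of day 10 without CLA replicate 1 (-0.925).

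Members of a family were set against each other within the same arrays. The log2 difference of Elovl6 was below that of Elovl5 by a mean of -2.36 and below that of Elovl1 by -3.82. Elovl5 lay below Elovl1 by -1.46 in the same way. Each of these 3 contrasts had the same sign on all 7 days and p = 0.0156 in a two-sided exact sign-flip permutation test, the smallest that 7 days can give, or 0.0273 after adjustment over the 7 pairs compared. Scd1 minus Scd2 passed the same exact test with the crowded bright set of Scd1. It averaged 0.37 and was above 0 on all 7 days (exact p = 0.0156, adjusted p = 0.0273). With the most variable sets it was 0.18 and did not pass (adjusted p = 0.625 by the same exact test). The dimmer set of Scd1 and the second set of Scd2 gave the opposite order, at -1.76 and -1.51, which was not tested. No order of Scd1 and Scd2 is therefore given.

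The 3 pairs of Fads genes did not pass. Fads1 minus Fads2 averaged -0.28 (SD 0.48, exact p = 0.188), Fads1 minus Fads3 averaged 0.28 (SD 0.51, exact p = 0.203) and Fads2 minus Fads3 averaged 0.56 (SD 0.61, exact p = 0.0625, adjusted over the pairs 0.0875). With the most variable probe sets the differences from Fads3 were called, at 0.80 for Fads1 (adjusted p = 0.0438 by the exact permutation test) and 1.08 for Fads2 (adjusted p = 0.0273).

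Within Scd1, Scd2 and Fads3 the brighter a probe set, the smaller was its fall, as the plot of all 22 probe sets shows. The order of mean signals in Scd2 was 11.5, 9.61 and 6.78 and that of the differences -0.98, -1.51 and -1.94. In Fads3 the means of 10.4, 9.14 and 6.87 went with differences of -0.86, -1.17 and -1.37. The 2 sets of Elovl5 went the same way, at -0.735 and -0.77. The order did not hold in Fads1, Fads2 and Elovl6, whose dimmest sets differed by 0.02, -0.205 and -0.23. Over all days the sign did not differ between probe sets of a gene, except for the dim second set of Fads1. The part of the signal level itself in the size of these differences was not tested.

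**Figure D3:**
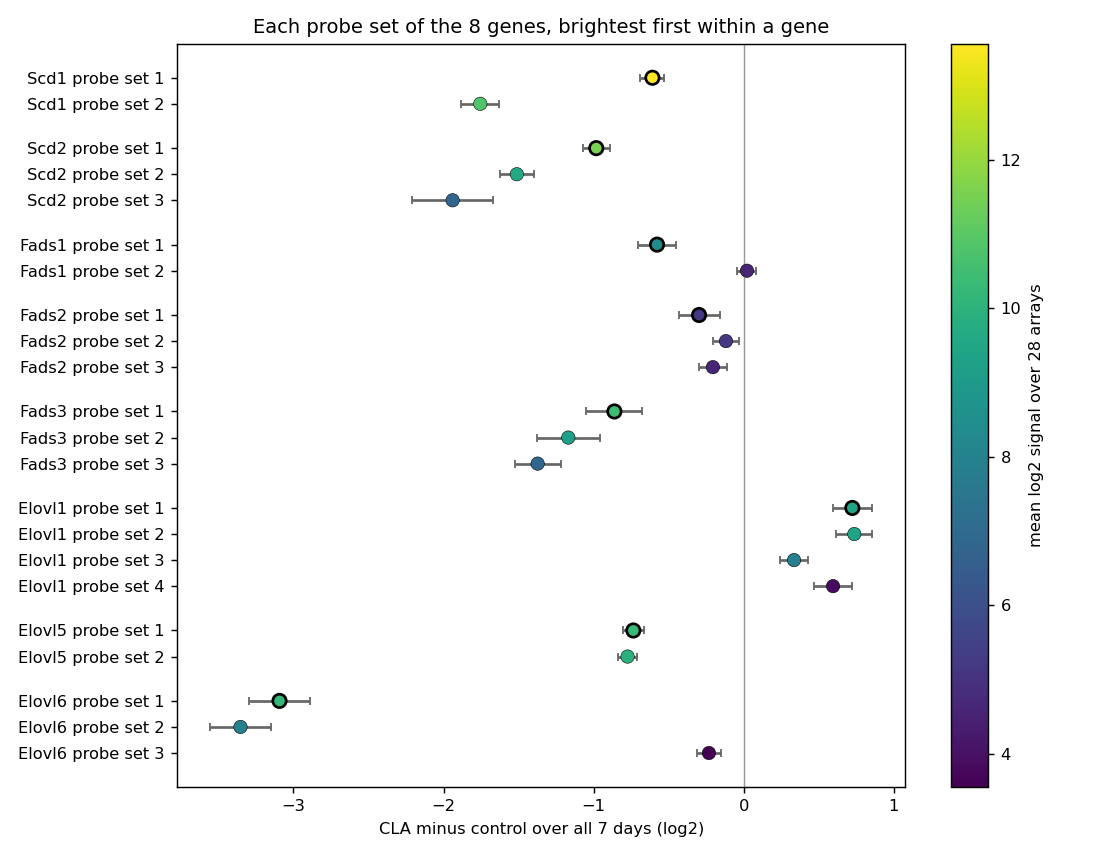
Log2 difference of CLA minus control over all 7 days (x axis) for each of the 22 probe sets (rows, brightest first within a gene), with bars for the SE and colour for the mean log2 signal; thick rims mark the set that stands for the gene. Scd1 differs by -0.61 in its bright set and by -1.76 in the other, and the dimmest set of Elovl6 sits at -0.23.

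Enzymes that work with the desaturases and elongases, and those that feed them, were counted from lists. The counts are over all days, when 19.8% of all genes were called lower and 18.7% higher. All 7 genes of fatty acid synthesis supply fell, with a median difference of -1.87, from Acss2, which makes acetyl-CoA from acetate, at -2.29 ± 0.22 to Me1 at -1.27. Fasn, the fatty acid synthase, fell by 1.60 ± 0.12. Of 6 enzymes that complete the elongation cycle, Hacd2, a dehydratase, fell by 1.41 ± 0.10 and Tecr, the reductase of the last step, fell by 1.40 ± 0.11, while Hacd4 rose by 1.01 ± 0.34 and Hacd3 by 0.28 ± 0.06. The call of Hacd4 was lost in 9 of 43 other settings. Hacd1 and Hsd17b12 were not called. The list median was -0.16.

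Of 4 measured genes listed as electron donors, the cytochrome b5 genes Cyb5b and Cyb5a fell at -0.74 ± 0.08 and -0.66 ± 0.09. Cyb5r1, a cytochrome b5 reductase, rose by 1.28 ± 0.14. Among 4 acyl-CoA synthetases Acsl3 fell by 0.71, Acsl4, which prefers arachidonic acid, rose by 0.59 and Acsl5 rose by 0.45. Of 15 regulators 10 fell, 1 rose and 4 were not called, with a median of -0.61. Among those that fell were Mlxipl at -2.40 ± 0.16, Thrsp, a lipogenic nuclear protein, at -2.27 ± 0.16 and Srebf1 at -1.77 ± 0.12. The riser was Mbtps2 (0.49 ± 0.11), a protease that releases SREBP from membranes, and Insig1, Srebf2, Mlx and Ppara did not pass.

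**Figure D4:**
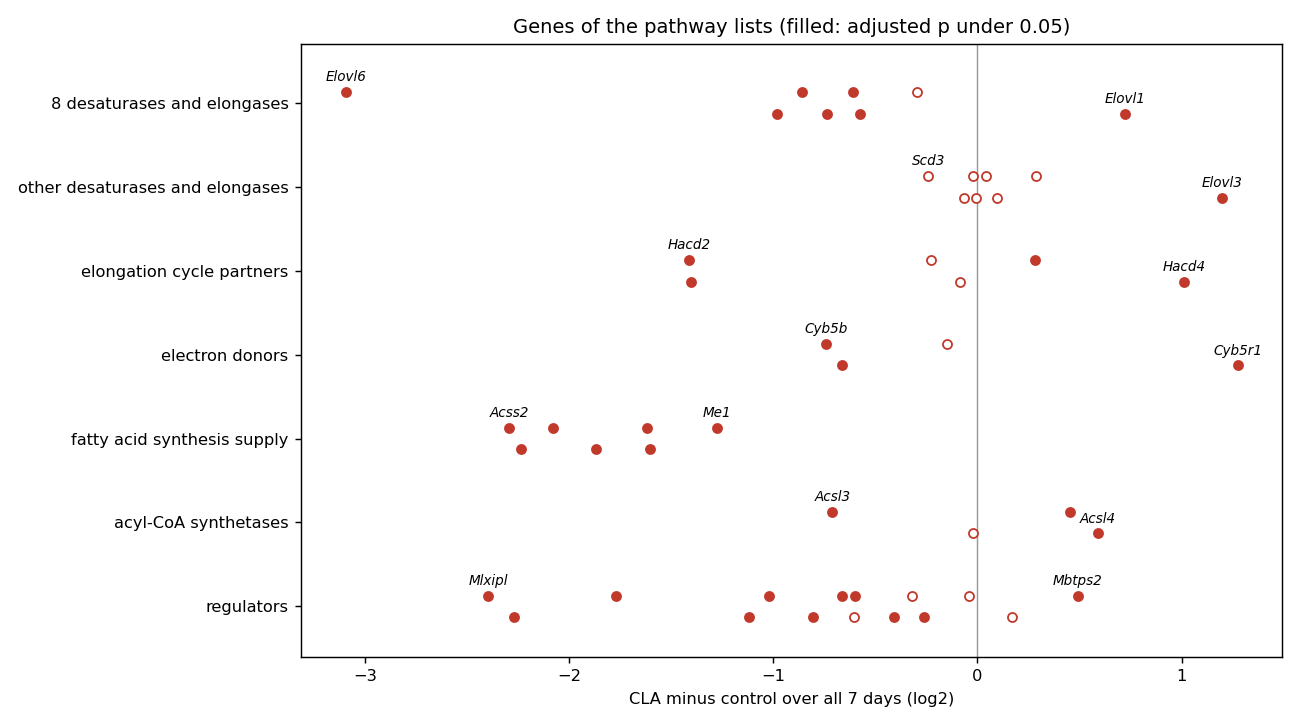
Log2 difference of CLA minus control over all 7 days (x axis) for every measured gene of each list (rows); filled points have an adjusted p under 0.05 and the outermost genes are named. The 7 supply genes lie between -2.29 and -1.27, while 7 of the 8 other desaturases and elongases are open points between -0.24 and 0.29.

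Of the 8 other measured desaturases and elongases, 1 passed over all days, when 38.5% of all genes did. Their mean log2 signal was 4.24 to 4.93 on the CLA arrays and 4.32 to 4.68 on the control arrays. The median over all genes tested was 5.43, and a missing call in dim genes does not show that they were unchanged. Elovl3, an elongase known from brown fat and induced there by cold, rose by 1.20 ± 0.41 (adjusted p = 0.0455), and the call was lost in 14 of 42 other settings, among them those without day 3, 4, 7, 10 or 17 (0.88 to 1.31). Its CLA arrays had a log2 signal of 3.96 and 3.75 on day 1, 3.83 and 4.14 on day 2, 5.56 and 5.13 on day 3, 5.41 and 5.10 on day 4, 5.58 and 6.87 on day 7, 6.94 and 7.88 on day 10 and 6.50 and 6.46 on day 17. Its control arrays had 4.23 and 4.33 on day 1, 4.29 and 4.04 on day 2, 4.95 and 4.66 on day 3, 4.38 and 3.44 on day 4, 3.84 and 3.94 on day 7, 4.36 and 4.26 on day 10 and 5.56 and 4.07 on day 17. The CLA arrays of Elovl3 lay below the control arrays on day 1, overlapped them on day 2 and lay above them from day 3. Its rise was called on day 4 at 1.35, day 7 at 2.34, day 10 at 3.10 (adjusted p = 2.35e-05) and day 17 at 1.67, and the interaction was called (adjusted p = 0.0022). The mean of 5 brown adipocyte markers, Ucp1 among them, was 5.15 to 6.25 on the CLA arrays of days 1 to 4 and 8.14 to 9.54 on those of days 7 to 17, against 7.17 to 8.06 and 7.45 to 8.03 on the control arrays. The part of brown-type cells in the rise of Elovl3 was not tested.

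Markers of other cells gave these counts over all days, when 19.8% of all genes were called lower and 18.7% higher. Of 6 endothelial genes 5 fell, led by Cdh5 at -1.26, of 6 skeletal muscle genes 3 fell, led by Myl1 at -0.87, and of 6 mesothelial genes 3 fell, led by Upk3b at -0.62. Of 5 genes of Schwann cells, which use Scd2 for myelin, Mbp (-0.52) and Mal (-0.30) fell, and the call of Mbp was lost in 22 of 43 other settings. Of 5 lymphocyte genes Cd79b rose (0.46), and of 5 brown adipocyte genes Cidea (-2.27) and Cox8b (-1.85) fell. On each of days 7, 10 and 17, 0 of these 5 fell and 2 rose. Of all genes 17.3%, 20.3% and 20.3% were called in either direction on those days. The call of Cidea over all days was lost without day 2, 3 or 4 or without days 1 and 2 together.

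The genes whose log2 signal followed a member most closely across the 28 arrays were named by Pearson correlation, as a description, since the arrays share the diet difference. For Elovl6 these were Acly, the citrate lyase that supplies acetyl-CoA (r = 0.984), and Orm1, an acute phase protein (r = 0.981). Scd1 was closest to Retn, the hormone resistin (r = 0.956), and Fasn (r = 0.953), and Scd2 to Cyb5b (r = 0.965) and Ppp2r5a, a phosphatase subunit (r = 0.965). Elovl1 was closest to Nup62, a nucleoporin (r = 0.967), and Mindy1 (r = 0.957), both of which rose. Fads1 was nearest to Pdf (r = 0.922) and Lep, the leptin gene (r = 0.908), Fads3 to Cdsn (r = 0.959) and Itga7 (r = 0.952), and Elovl5 to Snrk (r = 0.932) and Ahcyl2 (r = 0.93). Fads2 had the weakest match, with Abcb8 at r = 0.771 and Dcun1d1 at r = 0.767.

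Change over time on the control diet was tested apart. In limma's F test across the 7 control groups 0 of 8 were called, with 1, Fads2, at an unadjusted p under 0.05, while 0.115% of all genes were called and 5.88% had an unadjusted p under 0.05.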

How the data were processed

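RNA of pooled retroperitoneal fat pads was measured on 28 Affymetrix arrays. The deposited values are log2 probe-set signals made by the authors with RMA, per the submitters' processing notes, which correct background, normalise arrays by quantiles and summarise probes. The version and the annotation build are not given in the sources used here. Of 45101 probe sets, 34958 name 1 gene, 932 several and 9211 none; 34754 matched RefSeq (GRCm38.p6) by gene ID, used for names. No filter on dim probe sets was applied, and array medians lay between 4.10 and 4.20.

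With limma 3.58.1 in R 4.3.3, a model of the 14 group means (14 residual degrees of freedom) gave the daily differences of CLA minus control, late (days 7, 10, 17) minus early (days 1, 2, 3), the interaction and the control F test. The effect over all days was fitted on group means with the day as a block (6 residual degrees of freedom). Tests were two-sided, and p-values were adjusted by Benjamini-Hochberg over all 18194 genes. Other probe sets were tested in a fit of all 34958. The fits were tested on simulated data. The number of arrays limits precision.

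Genes and lists were chosen with earlier results of these data known. Besides the 8 genes, the text names the largest called rise and fall of each list (2 of each for 3 lists), 4 fixed genes and the 2 nearest genes of each member; other list genes were named after their values were seen. The lists cover other desaturases and elongases, elongation partners, electron donors, supply enzymes, synthetases, regulators and markers of adipocytes, brown adipocytes, macrophages, Schwann cells, muscle, mesothelium, endothelium and lymphocytes. Alternatives were the most variable probe set, a mean of at least 5, quantile normalisation, median centring, a variance trend, the replicate block, the day's 4 arrays, arrays as the unit, and leaving out arrays or days. Figures used matplotlib 3.10.9 in Python 3.11.15.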

Additional observations from a re-analysis of the deposited data

Results flagged for a closer look

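The size of the CLA effect differed between days, by limma's interaction test, for Fads1 (adjusted p = 0.00483) and Elovl6 (adjusted p = 0.00728) of the 8 genes. Fads1 had differences of -0.91 on day 1, 0.09 on day 2 and -0.89 on day 7, and Elovl6 of -2.06 on day 1 and -4.05 on day 17, while a second Elovl6 probe set had an interaction adjusted p = 0.457. Elovl3 differed between days as well (adjusted p = 0.0022), with -0.43 on day 1 and 3.10 on day 10. So did Hacd4 (adjusted p = 1.46e-05), which fell by 1.02 on day 1 and rose by 2.20 on day 7. Acss2 (adjusted p = 0.0208) had -1.49 on day 1 and -3.28 on day 17, and Thrsp (adjusted p = 0.0389) had -2.85 on day 3 and -1.68 on day 7. Cidea (adjusted p = 1.48e-05) had -4.51 on day 3 and 0.23 on day 7, and the macrophage gene Gpnmb (adjusted p = 1.38e-06) had 0.48 on day 1 and 6.02 on day 7.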

How the results depend on the processing

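Over all 7 days the count of 7 genes held in the other settings run, or became 8 where Fads2 passed. In limma it passed with the replicate block (-0.30, adjusted p = 0.0356) and with the 28 arrays as the unit (adjusted p = 0.0305). The replicate block called 46.1% of all genes over all days, against 38.5% as reported. With the 28 arrays as the unit that share was not counted. Without days 1 and 2, a setting chosen after seeing the data like those without the first control array of day 2 and with all probe sets together, 7 were called. With the most variable probe set of each gene 1 gene was called for late minus early and 1 for the interaction. The share of all genes called was not counted in that setting. With the replicate number as a block, 5 genes were called on day 2 and 5 for the interaction, while the shares of all genes called were 16.7% and 17.9%; same-numbered CLA and control arrays deviated together on each day (r = 0.0978 on day 7 to 0.566 on day 1), which does not show that they were paired. With the 4 arrays of a day alone, 2 of the 8 genes were called on day 1 and 0 on day 2 in limma. Of all 18194 genes these fits called 591 on day 1 and 0 on day 2. On each of these days 3 of the 8 had an unadjusted p under 0.05, and the share of all genes was not counted. Leaving out 1 array could change the number of the 8 genes called on each single day and for the interaction. It did not change that number over all 7 days or for late minus early. No called value changed sign. Among values that were not called, the sign turned with the most variable probe set for Elovl1 on day 1 (-0.05) and late minus early (0.062) and for Scd2 late minus early (0.40), and with quantile normalisation for Fads2 on day 7 (-0.014). It also turned when 1 array was left out for Fads3 on day 1 (-0.565 to 0.235), Elovl1 late minus early (-0.23 to 0.06), and Fads2 on day 2 (-0.205 to 0.455), day 4 (-0.08 to 0.17), day 7 (-0.095 to 0.145), day 10 (-0.37 to 0.02) and late minus early (-0.038 to 0.18). The cause of these changes was not tested. With 2 arrays a group, the SE of a day's difference was 0.23 for the dim gene Fads2 and 0.30 for Fads3, which limits what a single day can show.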
